A study of Mus musculus with 9 samples.

Results

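The genes described here encode enzymes that remodel the acyl chains of membrane phospholipids and enzymes that keep those chains from peroxidation in liver. They were chosen by name, as 10 gene symbols, namely the lysophospholipid acyltransferases Lpcat1, Lpcat2, Lpcat3, Lpcat4, Mboat1 and Mboat2, the long-chain acyl-CoA synthetases Acsl3 and Acsl4, and the peroxidation guards Gpx4 and Aifm2. Of these 10 symbols, 9 have a row among the 16755 genes of the authors' deposited table, and Mboat2 was not analysed here. RNA sequencing compared 3 groups of male mice with 3 mice in each, of strain C57BL/6 by the labels and of C57BL/6J background by the study's methods. Scd2f/f mice, which carry loxP-flanked Scd2 alleles and no Cre, and Scd2f/f;Col1a1-Cre (Scd2f/f;CC) mice, in which the Col1a1 promoter drives Cre in collagen-producing cells such as activated hepatic stellate cells (HSC) and portal fibroblasts, received the hepatic carcinogen diethylnitrosamine (DEN) at 10 mg/kg when 2 weeks old. Both were then given Western alcohol diet (WAD), which combines fat, cholesterol and ethanol, starting at 6 weeks of age and for 4 months by the sample labels, while the methods of the study give a longer period. The remaining group was untreated Scd2f/f mice (control liver), so that all 9 mice carried the floxed Scd2 alleles and no group received DEN or WAD alone. The labels call the tissue liver, and the tissue of the treated groups is called tumor-adjacent liver (TAL) here, after the study's results, although its RNA methods use another term. The Scd2f/f mice given DEN and WAD are called Cre-negative TAL and the Scd2f/f;CC mice Cre-positive TAL.

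Membrane phospholipids are made with one set of acyl chains and then edited: a phospholipase removes a chain, an acyl-CoA synthetase activates a free fatty acid, and a lysophospholipid acyltransferase places it on the lysophospholipid. This cycle sets how much polyunsaturated fatty acid the membranes hold, and polyunsaturated chains are the ones that iron-dependent peroxidation attacks in ferroptosis. ACSL4 favors arachidonic acid and so feeds peroxidizable phospholipids, ACSL3 serves monounsaturated fatty acids and lipid droplets, GPX4 reduces phospholipid hydroperoxides with glutathione, and AIFM2 (FSP1) regenerates coenzyme Q as a radical trap. SCD enzymes, the targets of the study, make monounsaturated fatty acids, which compete with polyunsaturated ones for these positions.

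Each level given below is the authors' group mean, a least-squares mean of read counts normalized to the upper quartile. Levels in each mouse are not analysed here. The spread among mice is therefore unknown, no difference was tested, and every ratio of means is a description without an error. A gene was counted as higher or lower when 2 means differed by at least 1.5-fold, among the 11784 genes with a mean over the 3 groups of at least 1. The 3 comparisons share groups, so they are not independent of each other. Normalized means at the 75th percentile of genes were 15.5 in control liver, 15.5 in Cre-negative TAL and 15.4 in Cre-positive TAL, and the depth of each sample is unknown. Scd2 itself had a mean of 2.46 in control liver, 6.47 in Cre-negative TAL and 1.87 in Cre-positive TAL. The hepatocyte marker Alb, with means of 21300, 20900 and 22700 in the same order, was high in all 3 groups.

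The 3 genes with the largest differences between Cre-negative TAL and control liver were Lpcat2, Acsl4 and Acsl3. Their promoters are shown because these genes carry the pattern, 1 of them higher and 2 lower in TAL. The sequences are the 250 bases before the RefSeq start of each gene in GRCm38.p6, written 5′ to 3′ on the strand of the gene. They lie at chr8:92855083-92855332 (plus strand) for Lpcat2, at chr1:78657575-78657824 (plus strand) for Acsl3 and at chrX:142390536-142390785 (minus strand) for Acsl4. Capitals mark the GC box (GGGCGG), the CCAAT box (CCAAT) and the TATA box (TATAAA), searched on both strands.
Lpcat2: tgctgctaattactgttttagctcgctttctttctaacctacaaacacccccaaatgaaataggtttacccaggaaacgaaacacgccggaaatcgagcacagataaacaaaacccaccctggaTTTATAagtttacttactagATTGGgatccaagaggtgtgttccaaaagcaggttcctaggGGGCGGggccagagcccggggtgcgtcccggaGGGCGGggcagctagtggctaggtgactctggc
Acsl3: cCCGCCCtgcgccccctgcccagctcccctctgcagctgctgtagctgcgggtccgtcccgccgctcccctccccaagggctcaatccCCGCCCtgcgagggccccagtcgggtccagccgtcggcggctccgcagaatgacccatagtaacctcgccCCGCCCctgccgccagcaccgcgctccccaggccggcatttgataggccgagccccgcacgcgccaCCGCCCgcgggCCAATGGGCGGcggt
Acsl4: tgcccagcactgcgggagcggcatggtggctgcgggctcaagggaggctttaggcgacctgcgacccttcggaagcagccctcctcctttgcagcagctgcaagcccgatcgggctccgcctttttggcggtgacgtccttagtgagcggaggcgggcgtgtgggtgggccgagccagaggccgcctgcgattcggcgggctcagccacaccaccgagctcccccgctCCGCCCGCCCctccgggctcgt
The Lpcat2 promoter held 2 GC boxes, a CCAAT box and a TATA box match read on the opposite strand, 126 bases before the start. Acsl3 had 5 GC boxes and a CCAAT box, with the CCAAT box at 15 bases before the start directly followed by the last GC box. In Acsl4, 2 overlapping GC boxes at 22 and 18 bases before the start were the matches found. CG pairs numbered 28 in Acsl3, 25 in Acsl4 and 10 in Lpcat2, against a median of 6 over all promoters. A promoter was found for all 10 symbols, Mboat2 included, among 32851 promoters of 27025 genes. A GC box was in a promoter of 9 of the 10 genes and in 32.7% of all promoters of the same length. A CCAAT box was in 6 of the 10 and in 33.8% of all. The counts are by gene, with a match in any of its promoters, of which Gpx4 has several. The percentages are by promoter, so the units differ. TATAAA was in the promoter of Lpcat2 alone among the 10 genes and in 12.4% of all promoters. The sterol regulatory element TCACNCCAC was in 0 of the 10 genes and in 1.05% of all promoters, the E-box CACGTG in 0 and in 6.02%, and the antioxidant response element TGACNNNGC in Lpcat4 alone and in 10.2%. The window of Lpcat4 starts at 112239591 and that of Aifm2 at 61720399, inside genes that start in GENCODE at 112239468 and 61715263. Some windows of Gpx4 also lie inside its gene. The matches describe the letters of the windows.

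In Cre-negative TAL against control liver, all 5 acyltransferases had the higher mean in TAL and both acyl-CoA synthetases the lower. The means of the peroxidation guards were close. Of the acyltransferases, Lpcat4 and Mboat1 had means under 1 in every group. These directions take no limit, and the share of all genes on each side was not counted. Of the 9 genes, 7 reached the minimum mean of 1, and 2 of these 7 (Lpcat2 and Lpcat3) were at least 1.5-fold higher and 2 (Acsl3 and Acsl4) at least 1.5-fold lower. Among all 11784 genes, 12.8% were higher and 8.60% lower by that limit. The median log2 ratio was 0.07 over the 7 genes and 0.44 over all 9 found, and 0.028 over all genes counted, with an interquartile range from -0.24 to 0.31. Lpcat3, with a ratio of 1.57, was the gene just inside the limit, and Lpcat1, with 1.36, the one just outside.

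**Figure D1:**
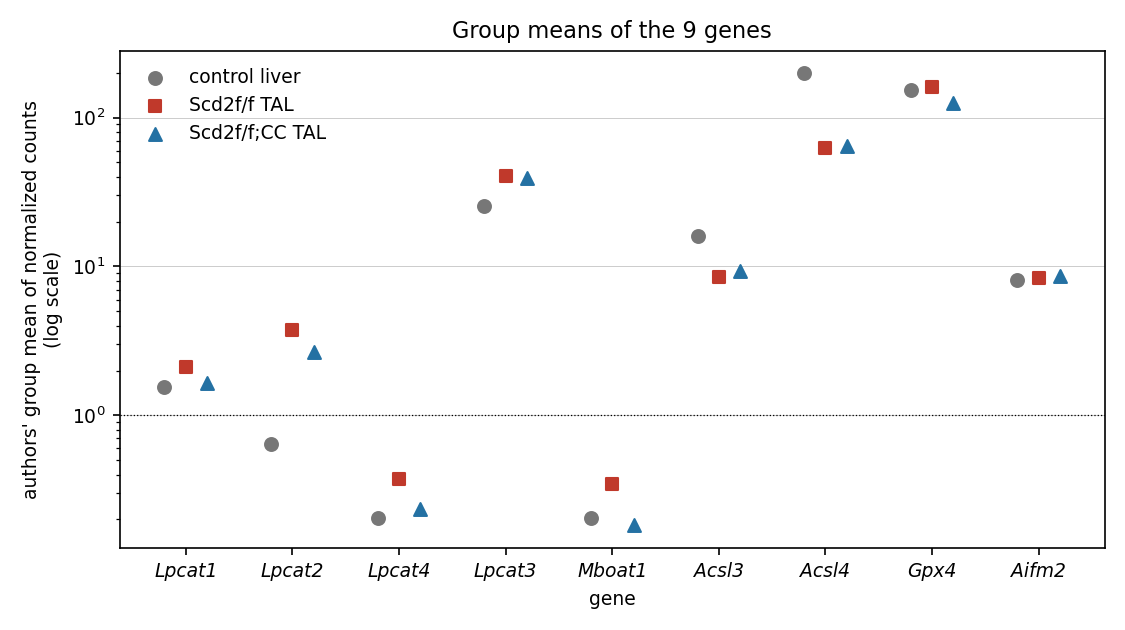
Authors' group means of normalized counts (log axis) for the 9 genes, with 1 point for each of control liver (circle), Cre-negative TAL (square, named Scd2f/f TAL) and Cre-positive TAL (triangle, named Scd2f/f;CC TAL). The dotted line marks a mean of 1. Acsl4 stands at 198 in control liver and 62.2 and 64.5 in the TAL groups, and Lpcat2 at 0.64 in control liver against 3.73 and 2.67.

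The LPCAT enzymes of the AGPAT family are Lpcat1, Lpcat2 and Lpcat4. Lpcat2 encodes an enzyme of inflammatory cells that makes phosphatidylcholine and the lipid mediator platelet-activating factor. Its mean was 0.64 in control liver, 3.73 in Cre-negative TAL and 2.67 in Cre-positive TAL. The ratio of Cre-negative TAL to control liver was 5.83 (log2 ratio 2.54), and 0.407% of the genes counted had a ratio at least as high. The genes annotated within its bounds, among them Capns2 on the same strand, were not analysed here. Lpcat2 reached the minimum mean of 1 through the TAL groups, and with a pseudocount of 1 its log2 ratio was 1.53. Lpcat1, known for the saturated phosphatidylcholine of lung surfactant, had means of 1.55, 2.11 and 1.65 in control liver, Cre-negative TAL and Cre-positive TAL. Its ratio of 1.36 between the first pair was matched or exceeded by 17.7% of genes. Lpcat4, which acts on lysophosphatidylcholine and lysophosphatidylethanolamine, was near the low end of the table, with means of 0.206, 0.372 and 0.236. The log2 ratio of Lpcat4 between Cre-negative TAL and control liver was 0.85, and 0.19 with a pseudocount of 1 on both means.

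Lpcat3 and Mboat1 belong to the membrane-bound O-acyltransferases. Lpcat3, the main liver enzyme that places polyunsaturated chains on phosphatidylcholine and a known target of the oxysterol receptor LXR, had a mean of 25.6 in control liver, 40.3 in Cre-negative TAL and 39.0 in Cre-positive TAL. Both TAL groups were thus above control liver, by ratios of 1.57 and 1.52, and they were close to each other. Ratios at least as high as that of Cre-negative TAL to control liver were found for 11.1% of the genes counted. Lpcat3 lies on chromosome 6 from 124663027 to 124704418 on the plus strand (GRCm38), where it overlaps Emg1 on the other strand. Emg1 had means of 17.6, 11.8 and 12.7, and whether reads were counted by strand is not given in the sources used here, so how reads in the overlap were assigned was not tested. Mboat1, an acyltransferase for lysophosphatidylserine and lysophosphatidylethanolamine, had means of 0.205, 0.345 and 0.183, below the minimum in each group.

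Acsl4, the synthetase for arachidonic acid, had a mean of 198 in control liver, 62.2 in Cre-negative TAL and 64.5 in Cre-positive TAL. Its mean was 3.18-fold lower in Cre-negative TAL than in control liver (log2 ratio -1.67), and 0.950% of genes had a ratio as low or lower. The pseudocounts moved this log2 ratio to -1.65 at the most. Acsl3, the partner in monounsaturated fatty acid activation, had means of 16, 8.56 and 9.33. That made it 1.87-fold lower in Cre-negative TAL than in control liver (log2 ratio -0.90), a ratio that 3.75% of genes matched or went below. Acsl3 lies on chromosome 1 from 78657825 to 78707743 on the plus strand (GRCm38), and Utp14b overlaps it on the same strand. Utp14b had means of 11.6, 5.46 and 7, lower in both TAL groups as well, and how reads in the overlap were divided between the genes was not tested. Acsl4 lies on chromosome X from 142317993 to 142390535 on the minus strand, where no other annotated gene overlaps it. The means of the other long-chain synthetases found were closer between Cre-negative TAL and control liver. Acsl1, the main one for triglyceride synthesis and oxidation in hepatocytes, had means of 532, 558 and 806, and Acsl5 means of 139, 135 and 125.

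Gpx4 had means of 152 in control liver, 160 in Cre-negative TAL and 125 in Cre-positive TAL. The ratio of Cre-negative TAL to control liver was 1.05, and 45.4% of genes had a ratio at least as high. Aifm2 was the most even of the 9 genes, with means of 8.12, 8.31 and 8.63 and no ratio between any pair of groups above 1.06. The 2 guards thus stayed within 1.5-fold in all 3 comparisons. Aifm2 overlaps H2afy2 on the other strand, which was low, with means of 0.432, 0.576 and 0.386.

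**Figure D2:**
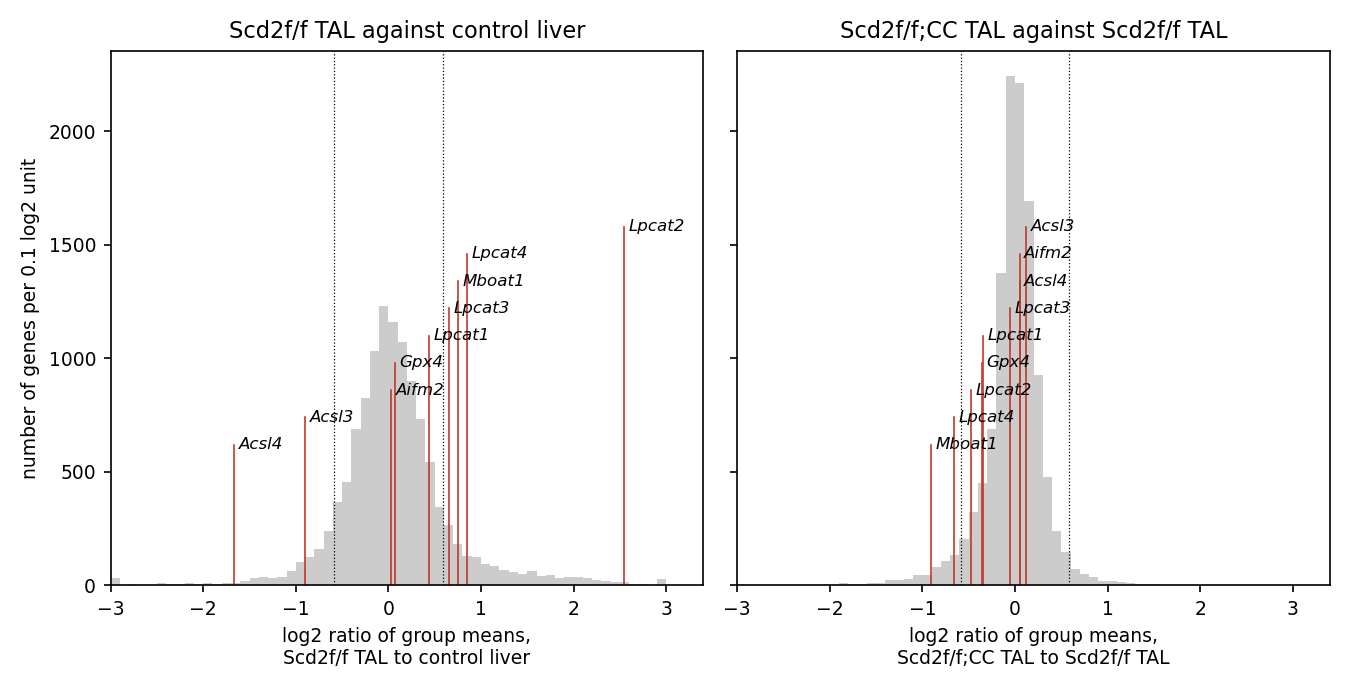
Histograms of the log2 ratios of group means of the 11784 genes counted (grey, 0.1 log2 unit per bar, values beyond 3 in either direction drawn in the end bars), with the 9 genes as red lines whose heights only separate the names. Dotted lines mark 1.5-fold. Lpcat2 at 2.54 and Acsl4 at -1.67 lie in the tails of the left panel, and Lpcat4 and Mboat1, both under the minimum mean, are the 2 genes past 1.5-fold in the right panel.

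In Cre-positive TAL against Cre-negative TAL, 0 of the 7 genes that reached the minimum mean were past 1.5-fold in either direction, while 2.35% of all genes were higher and 4.90% lower by that limit. The median log2 ratio was -0.05 over the 7 genes, against 0.0059 over all genes counted, whose interquartile range ran from -0.14 to 0.14. Over the 9 found, which include 2 genes under the minimum mean, it was -0.35. All 5 acyltransferases were below the Cre-negative TAL mean, a direction for which the share of all genes was not counted. Ratios were 0.716 for Lpcat2, 0.782 for Lpcat1, 0.968 for Lpcat3, 0.634 for Lpcat4 and 0.53 for Mboat1, the latter 2 with means under 1 in every group. A ratio as low as that of Lpcat2 was found for 6.75% of the genes counted and one as low as that of Lpcat1 for 10.6%. Gpx4 was 21.9% below its Cre-negative TAL mean, with a ratio of 0.781 that 10.6% of genes matched or went below. Acsl3, Acsl4 and Aifm2 were slightly above, with ratios of 1.09, 1.04 and 1.04. When the limit was lowered to 25% above the lower mean, 3 of the 7 genes (Lpcat1, Lpcat2 and Gpx4) were counted as lower and 0 as higher, beside 11.9% of all genes lower and 8.46% higher.

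Cre-positive TAL was also set against control liver, a comparison of genotype and treatment at once. Again 2 of the 7 genes were higher (Lpcat2 and Lpcat3) and 2 lower (Acsl3 and Acsl4) by at least 1.5-fold, beside 10.9% and 7.71% of all genes. Lpcat2 had a ratio of 4.17, Lpcat3 of 1.52, Acsl3 of 0.583 and Acsl4 of 0.326. For all 4 genes the means of both TAL groups lay closer to each other than to control liver, whereas Lpcat1, with a ratio of 1.06, and Lpcat4, with 1.15, were near their control means. When the log2 ratios were centred on the median of all genes, that of Lpcat3 was 0.56 and no longer past the limit. The median was 0.09 over the 7 genes and also over all 9 found, and 0.043 over all genes counted.

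Levels of different genes were compared only after division by the longest annotated transcript of each gene. Per kilobase of transcript, Gpx4 had the highest level in every group, with 153 normalized counts in control liver, 161 in Cre-negative TAL and 126 in Cre-positive TAL. Acsl4 was next in control liver, with 37.5 against 10.8 for Lpcat3, and Lpcat3 was next in both TAL groups, with 17.0 against 11.8 for Acsl4 in Cre-negative TAL and 16.4 against 12.2 in Cre-positive TAL. The order of Acsl3 and Aifm2 also differed, with 4.05 for Acsl3 and 2.63 for Aifm2 in control liver and 2.17 and 2.69 in Cre-negative TAL. Lpcat2 was under Lpcat1 in control liver, with 0.228 against 0.422, and above it in Cre-negative TAL, with 1.33 against 0.574. Lpcat4 and Mboat1 were lowest in all 3 groups, at most 0.164 per kilobase. Without errors, which neighbors in these orders differ beyond the spread between mice is not known.

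Markers of other cell types also differed between the groups. All 9 macrophage markers were at least 1.5-fold higher in Cre-negative TAL than in control liver, with log2 ratios from 1.38 for Clec4f to 4.07 for Marco, and their summed mean was 107 in control liver, 417 in Cre-negative TAL and 342 in Cre-positive TAL. None of these markers was at 0 in any group. Marco, however, had a mean of 0.87 in control liver and reached the minimum mean through the TAL groups. The means of Lpcat2 had the same order of groups as the sum of the macrophage markers. So did those of Lpcat1, Lpcat3 and Lpcat4, and the share of all genes with that order was not counted. The sums of the T and B cell markers (1.13, 3.91 and 2.49) and of the neutrophil markers (0.565, 2.81 and 2.29) had that order too. Sums of the other marker lists had other orders. The part of macrophages or of any other cell type in the result was not tested. In bulk liver, more cells of a type and more RNA per cell cannot be told apart. Of 10 HSC and fibroblast markers, 9 had a mean of at least 1, and 6 of them were higher in Cre-negative TAL than in control liver (median log2 ratio 0.70) and 7 lower in Cre-positive TAL than in Cre-negative TAL (median -1.06). Cholangiocyte markers had a median of -0.11 and then -1.61 over the 3 of 5 that reached the minimum mean, with 1 higher in the first comparison and 2 lower in the second. Among 6 endothelial markers, Lyve1 alone was past the limit in each comparison, and the medians were 0.33 and 0.01. The 6 T and B cell markers all had a mean under 1, with medians of 1.74 and -0.09. For neutrophils, 2 of 5 markers were found, S100a8 and S100a9, with log2 ratios of 2.05 and 2.45 in the first comparison and -0.32 and -0.29 in the second. Both were low: S100a8 was under the minimum mean, and S100a9, at 0.355 in control liver, reached it through the TAL groups. Hepatocyte markers had medians of -0.15 and 0.20, with 1 of 7 (Apoa1) past the limit, lower in Cre-negative TAL than in control liver.

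Around the acyltransferases, the pathway was described by lists of genes with related roles. In all counts of these lists, genes under the minimum mean are left out. The shares of all genes by the same limit were 12.8% higher and 8.60% lower in Cre-negative TAL than in control liver. In Cre-positive TAL against Cre-negative TAL they were 2.35% and 4.90%. Among 12 other glycerolipid acyltransferases, 1 was at least 1.5-fold higher in Cre-negative TAL than in control liver and 0 were lower, with a median log2 ratio of 0.20. That gene was Gpat3, which starts glycerolipid synthesis, with means of 2.99 in control liver, 7.44 in Cre-negative TAL and 6.26 in Cre-positive TAL. Mboat7, which places arachidonic acid on phosphatidylinositol, had means of 11.4, 16 and 15.5. Between the TAL groups, 0 of the 12 were past the limit, and Taz (tafazzin), the cardiolipin remodeling enzyme, had the largest log2 ratio, 0.36.

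Of 16 phospholipases, which open positions for reacylation, 6 were higher in Cre-negative TAL than in control liver and 0 lower, with a median log2 ratio of 0.24. Pla2g7, which degrades platelet-activating factor and is made by macrophages, had means of 1.39 in control liver, 6.5 in Cre-negative TAL and 2.63 in Cre-positive TAL. It was the 1 phospholipase past the limit between the TAL groups, 2.47-fold lower in Cre-positive TAL. Pla2g4a, which releases arachidonic acid, had means of 0.793, 3.06 and 2.37, and reached the minimum mean through the TAL groups. Of the other fatty acid activating enzymes, 1 of 10 was past the limit in the first comparison, Acss2, an acetyl-CoA synthetase and sterol-regulated gene, with means of 60.4, 23.3 and 26.1. In the second comparison 0 of the 10 were past it, and Acsl1 had the largest log2 ratio, 0.53.

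Head group and ether lipid synthesis were counted in the same way, beside the same shares of all genes. In phosphatidylcholine and phosphatidylethanolamine synthesis, 1 of 14 genes was higher and 1 lower in Cre-negative TAL than in control liver. Chka, the choline kinase, had means of 8.24, 26.2 and 26.1, and Etnk2, an ethanolamine kinase, 91.5, 45.6 and 63.9. In ether lipid synthesis 1 of 7 was higher, Far1, which reduces fatty acyl-CoA to fatty alcohol, with means of 2.51, 3.86 and 3.66. Neither list had a gene past the limit between the TAL groups. Of the 7 desaturases and elongases, 3 were higher and 1 lower in the first comparison. Scd1 had means of 1670, 6360 and 5310, Elovl5, an elongase for polyunsaturated fatty acids, 119, 244 and 212, and Fads1, the desaturase that yields arachidonic acid, 178, 110 and 92.9. The targeted gene Scd2 alone was past the limit in the second.

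**Figure D3:**
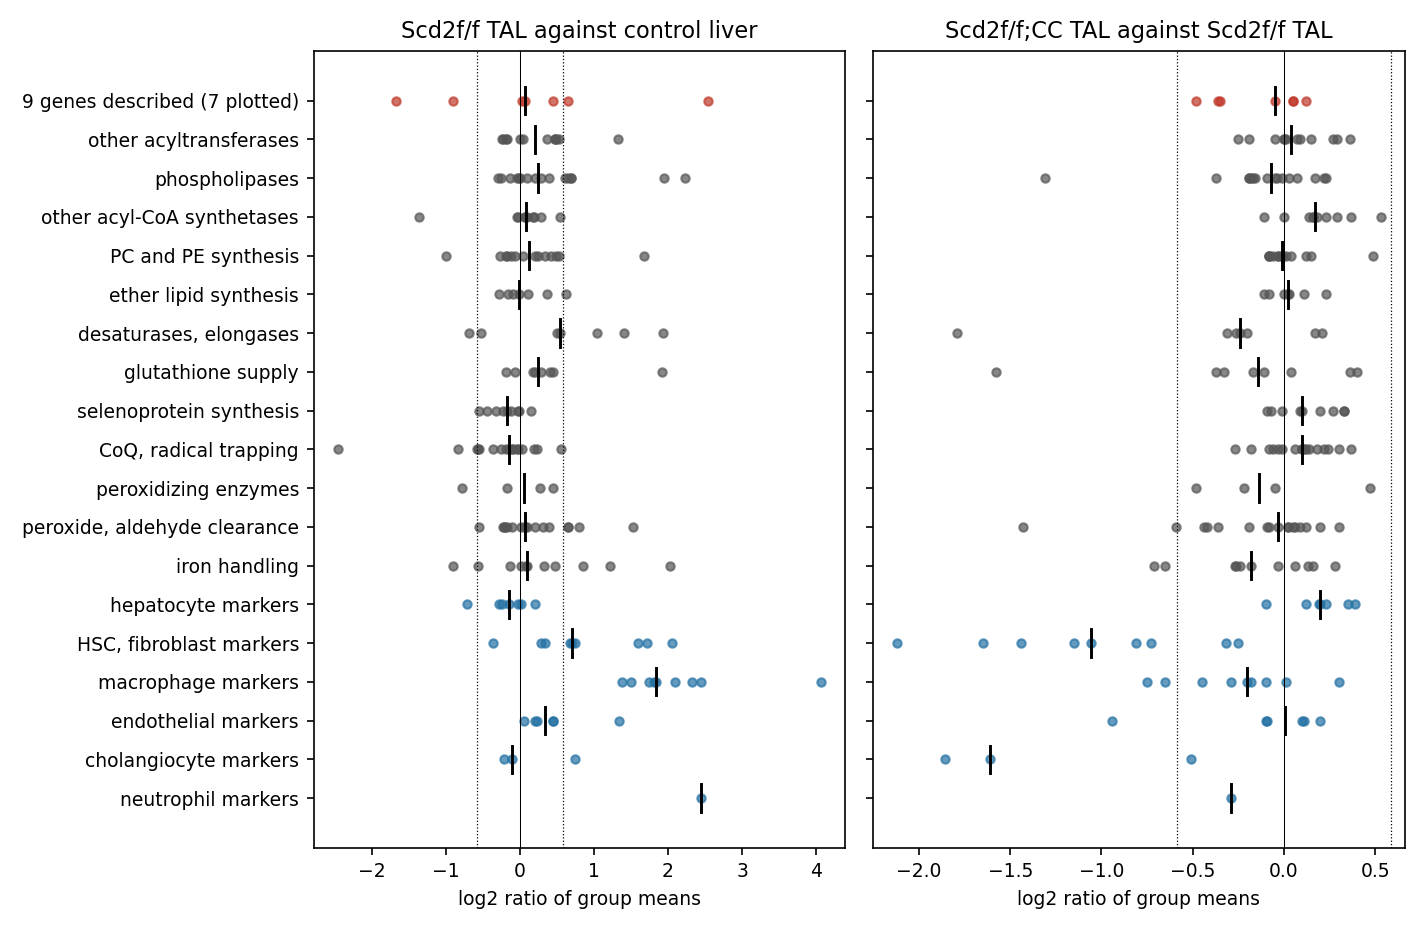
Log2 ratios of group means (horizontal axis) for genes that reached the minimum mean, by list, with 1 point per gene and a black bar at the list's median, for both comparisons with Cre-negative TAL. Red points are the genes described, grey points the pathway lists and blue points the cell type markers, and dotted lines mark 1.5-fold. The 9 macrophage markers lie at 1.38 or more in the left panel, and the 7 genes described lie between -0.48 and 0.12 in the right panel.

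Genes around GPX4 and other guards were counted in the same way, beside the same shares of all genes. Of 8 genes for glutathione and cystine supply, 1 was higher in Cre-negative TAL than in control liver and the same gene was lower in Cre-positive TAL than in Cre-negative TAL. This was Chac1, which degrades glutathione in the stress response, with means of 1.06 in control liver, 4.01 in Cre-negative TAL and 1.34 in Cre-positive TAL. Gclc, the catalytic subunit of glutathione synthesis, had means of 205, 237 and 183. In selenoprotein synthesis, on which GPX4 depends, 0 of 9 genes were past the limit in either comparison, with medians of -0.17 and 0.10. Trnau1ap, a factor for selenocysteine tRNA, had the largest difference, with means of 9.26, 6.34 and 6.02. Of 17 genes that act on coenzyme Q, tetrahydrobiopterin and other radical trapping molecules, 2 were lower in the first comparison. In the second, 0 were past the limit. The 2 lower genes were the sterol synthesis enzymes Dhcr7, with means of 43.8, 7.95 and 7, and Sc5d, with 270, 152 and 168. Whether these enzymes raise or lower the trapping molecules was not tested. Gch1, the entry enzyme of tetrahydrobiopterin synthesis, had means of 72.4, 67.8 and 83.7.

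Of 8 enzymes that drive peroxidation found in the table, 4 had a mean of at least 1. Of these 4, 1 was lower in Cre-negative TAL than in control liver, and 0 were past the limit between the TAL groups. It was Por, the cytochrome P450 reductase, with means of 196 in control liver, 114 in Cre-negative TAL and 158 in Cre-positive TAL. Between Cre-negative TAL and control liver, the median log2 ratio was 0.05 over these 4 and 0.48 over all 8 found. Sat1, a polyamine acetyltransferase, had means of 27.2, 36.8 and 26.4. Of 17 genes that clear peroxides and aldehydes, 4 were higher in Cre-negative TAL than in control liver and 2 lower in Cre-positive TAL than in Cre-negative TAL. Aldh3a2, a fatty aldehyde dehydrogenase, had means of 150, 432 and 319. Gpx3, the secreted glutathione peroxidase, had means of 1.89, 3.28 and 1.22, and Gpx7 means of 1.16, 1.24 and 0.824. In iron handling, 3 of 11 genes were higher and 1 lower in the first comparison, and 2 were lower in the second. Hmox1, which frees iron from heme, had means of 4.25, 17.4 and 11.1, Steap3, an endosomal ferrireductase, 4.7, 10.9 and 11.9, Slc39a14, a zinc and iron importer, 141, 75.2 and 83.9, and Steap4, another metalloreductase, 123, 131 and 80.3.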

How the data were processed

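The authors selected polyadenylated RNA with TruSeq V2 beads, quantified reads on Gencode M3 with the Partek E/M method, normalized gene counts to the upper quartile and ran Partek Gene Specific Analysis. The submitters' processing notes also name STAR 2.6.1, Partek 6 and mm10. The deposited table holds 18 columns. Of these, 3 were used, the signal of each group, which the authors give as a least-squares mean of normalized counts over the replicates. The p-values, false discovery rates, ratios and fold changes of the authors' own comparisons were not used. No normalization to gene length is stated. Starts and ends of the 9 genes matched GENCODE M21 on GRCm38.

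Log2 ratios of means were computed without a pseudocount. Genes with a mean over the 3 groups of at least 1 were counted past 1.5-fold. The tests planned for single samples could not be run. The genes and lists were chosen with earlier results of these data known. All 9 genes are named. From each pathway list the rule allowed the 3 genes with the largest log2 ratio in each comparison. Beside these, Acsl5, Fads1, Slc7a11, Ptgs2, Ptafr, Pafah1b1, Pafah1b2 and Pafah1b3 were chosen after their values were seen. Promoters came from RefSeq (GRCm38.p6). The counting step was tested on simulated data. Alternatives were limits of 2-fold and of 25% above the lower mean, pseudocounts of 0.1 and 1, centring on the median, no filter, and a minimum of 10. Python 3.11.15, NumPy 2.4.6, pandas 2.3.3 and Matplotlib 3.10.9 were used.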

Additional observations from a re-analysis of the deposited data

How the results depend on the processing

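The number of the 7 genes past the limit was 2 at 2-fold in both comparisons with control liver, and for Cre-positive TAL against Cre-negative TAL it was 3 at the limit of 25% and 2 with no filter, which adds Lpcat4 and Mboat1. Counts over all genes were, in the order of Cre-negative TAL against control liver, Cre-positive TAL against Cre-negative TAL and Cre-positive TAL against control liver, 2525, 855 and 2192 at 1.5-fold, 1095, 257 and 832 at 2-fold, 5183, 2395 and 4859 at 25%, 4777, 2605 and 4317 with no filter, and 875, 202 and 801 with a minimum mean of 10. With a pseudocount of 1 the count of the second comparison was 472. The median log2 ratio over the 9 genes, in the same order of comparisons, was 0.42, -0.34 and 0.08 with a pseudocount of 0.1, 0.16, -0.15 and 0.04 with a pseudocount of 1, and 0.42, -0.36 and 0.04 after centring. Over the 4 genes whose mean reached 10 it was -0.41, 0.00 and -0.53, so the sign of the medians against control liver depended on the low genes. Across the 27 log2 ratios of single genes, 0 changed sign under the pseudocounts or the centring. Of the 12 past 1.5-fold, 2 were no longer so with a pseudocount of 0.1, 4 with a pseudocount of 1 and 1 after centring. Leaving out replicates was not run, since the columns used are group means. No paired analysis was possible because no column carries a replicate number. Depth is unknown, so what low genes such as Lpcat4 and Mboat1 can show is not known.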

Other observations

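Genes around platelet-activating factor, the mediator that LPCAT2 can make, were looked at after the values of Lpcat2 and Pla2g7 had been seen. Ptafr, its receptor on leukocytes, had a mean of 0.512 in control liver, 1.89 in Cre-negative TAL and 1.04 in Cre-positive TAL. The ratio was 3.69 between Cre-negative TAL and control liver and 0.55 between Cre-positive TAL and Cre-negative TAL. The receptor, Lpcat2 and Pla2g7 each had their highest mean in Cre-negative TAL and their lowest in control liver. Genes of other roles, such as Lpcat1, Lpcat3, Gpat3, Scd1 and Hmox1, had that order too. The share of all genes with it was not counted. Ptafr and Lpcat2 had means under 1 in control liver and reached the minimum mean through the TAL groups. Other genes for acetylhydrolases of platelet-activating factor did not share that order. In control liver, Cre-negative TAL and Cre-positive TAL, the means of Pafah2 were 35.2, 34.9 and 40.9. Those of Pafah1b1 were 45.9, 52.7 and 55.2, those of Pafah1b2 19.3, 17.6 and 16.5, and those of Pafah1b3 0.902, 0.912 and 1.11. No difference among these genes was tested, and macrophage markers were higher in both TAL groups.

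Slc7a11, the cystine importer, had a mean over the 3 groups under 1, with 0.0828 in control liver, 1.01 in Cre-negative TAL and 0.224 in Cre-positive TAL. Ptgs2, often used as a ferroptosis marker, was also low, with means of 0.0515, 0.492 and 0.151.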
